A study of Homo sapiens with 4 samples.

Results

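The type I and type II keratin clusters were examined in a genome-wide table of windows with read counts from DNA enriched for modified cytosine. The type I cluster was taken as chr17:38800001-39800000 and the type II cluster as chr12:52500001-53400000 of hg19. Of the 956365 windows of 500 bp in the table, 1429 lay in these regions, 666 in the type I region and 763 in the type II region. The DNA came from FADU cells, a human line derived from a squamous carcinoma of the hypopharynx. The 4 libraries were of cells carrying a scrambled control or TET1-si, a stable knockdown of the 5-methylcytosine oxidase TET1, each kept in normoxia or in hypoxia at 1% oxygen, for 18 h with the scrambled control and 19 h with TET1-si. The study asked how TET1 acts in the epithelial-mesenchymal transition induced by hypoxia. There was 1 library per condition, and the names of the 4 value columns match no condition, so no level, condition or knockdown was compared. A window is called listed below when it is in the table. A listed window does not say in which library it had reads, and one that is absent may still have had some. Whether a listed window is enriched over input DNA, or follows copy number, was not tested. The sources name the mark differently, as 5-hydroxymethylcytosine in the titles and methods and as an antibody to 5-methylcytidine in the sample labels, so the windows are described here only as listed or not. No transcript was measured in these files, so the level of KRT5, KRT14, KRT8 and KRT18, the markers of stratified and simple epithelium, could not be checked.

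Keratins build the intermediate filaments of epithelial cells from an acidic type I and a basic type II chain. Pairs such as KRT14 with KRT5 in the basal layer of stratified epithelia, or KRT18 with KRT8 in simple epithelia, mark cell types. Keratins are used as epithelial markers, and their loss is one of the features by which an epithelial-mesenchymal transition is recognised. The hair keratins form the hair shaft and nail, the root sheath keratins form layers around the growing shaft, and the keratin-associated proteins cross-link hair keratin filaments. The clusters hold 55 keratin genes in GENCODE version 44, of which 28 were classed as epithelial, 17 as hair, 9 as root sheath and 1, KRT222, as neither. KRT18 is a type I gene that lies in the type II cluster, next to KRT8. The type I region also holds 34 keratin-associated protein genes.

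The 200 bases before the outermost annotated 5′ end of 4 genes are printed to show sequences from a listed promoter window and from absent ones. The CpG sites are in capitals. KRT6C and KRT76 stand for the epithelial genes with no promoter window listed, and KRT33A and KRT35 for hair keratins.
KRT6C (stress keratin; GRCh37 chr12:52867590-52867789, minus strand): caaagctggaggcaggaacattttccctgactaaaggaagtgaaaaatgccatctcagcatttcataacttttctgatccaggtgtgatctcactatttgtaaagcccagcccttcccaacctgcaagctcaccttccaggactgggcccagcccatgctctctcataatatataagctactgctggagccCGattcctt
KRT76 (palate keratin; GRCh37 chr12:53171130-53171329, minus strand): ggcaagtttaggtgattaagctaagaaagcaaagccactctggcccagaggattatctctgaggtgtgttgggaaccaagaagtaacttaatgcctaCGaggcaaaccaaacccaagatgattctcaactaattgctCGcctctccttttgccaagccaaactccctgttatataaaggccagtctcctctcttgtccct
KRT33A (hair keratin; GRCh37 chr17:39507081-39507280, minus strand): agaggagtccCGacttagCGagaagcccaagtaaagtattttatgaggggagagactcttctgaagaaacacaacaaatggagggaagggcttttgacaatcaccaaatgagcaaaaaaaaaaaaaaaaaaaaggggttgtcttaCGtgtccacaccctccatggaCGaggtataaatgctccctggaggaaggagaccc
KRT35 (hair keratin; GRCh37 chr17:39637404-39637603, minus strand): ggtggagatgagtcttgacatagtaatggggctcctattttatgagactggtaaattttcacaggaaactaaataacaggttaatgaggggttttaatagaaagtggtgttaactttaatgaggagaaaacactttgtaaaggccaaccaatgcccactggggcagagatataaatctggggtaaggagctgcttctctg

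The KRT6C and KRT76 sequences have 1 and 2 CpG sites, and the window that holds each is not listed. The KRT33A sequence has 4 CpG sites in a listed window. The KRT35 sequence has none and spans a border between windows, neither of which is listed. The whole windows of 500 bp hold 5 CpG sites at KRT33A, 5 at KRT6C, 4 at KRT76, and 8 and 3 at KRT35. In the same order their predicted shares were 26.92%, 26.92%, 28.25%, 51.87% and 18.87%. CpG number thus did not separate the listed window from the absent ones here. Because listing varied with base composition over the genome, each share below is set beside the share predicted from it.

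Both clusters had more listed windows than their base composition predicts. Over the autosomes 17.6% of windows were listed. In the type I region 666 of 2000 windows were listed, which is 33.3% (95% Wilson interval, 31.3 to 35.4%), against 20.6% predicted. The prediction is how often windows of matching CpG number and GC content were listed across the autosomes. The ratio of listed to predicted windows was 1.62 (1.52 to 1.72). In the type II region 763 of 1800 windows were listed, 42.4% (40.1 to 44.7%), against 30.4% predicted, a ratio of 1.39 (1.32 to 1.47). The intervals treat windows as independent although neighbours are not, and cover counting error over windows only. No test was run, because windows are not replicates of a condition.

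The regions also stood above the chromosomes that hold them. The rest of chromosome 17 had a ratio of 1.25 and the rest of chromosome 12 a ratio of 1.05. Of 78 tiles of 1 Mb along chromosome 17, 11 had a ratio at or above that of the type I region, with a median of 1.20. Of 131 tiles along chromosome 12, 21 reached the ratio of the type II region, with a median of 0.887. The tiles were not restricted to DNA outside the keratin regions. A high ratio was thus not particular to the keratin clusters. The epidermal differentiation complex on chromosome 1, another cluster of genes for the squamous lineage, had 539 of 3298 windows listed and a ratio of 0.971 (0.898 to 1.05). The 60 keratin-associated protein genes outside chromosome 17 had 40 of 90 gene body windows listed and a ratio of 0.969 (0.754 to 1.19). At the borders of the type I region, the first 100 kb inside had a ratio of 1.61 and the 100 kb before it 1.72, and the last 100 kb inside had 1.70 and the 100 kb after it 1.86. At those of the type II region, the first 100 kb inside had 1.59 and the 100 kb before it 1.18, and the last 100 kb inside had 1.82 and the 100 kb after it 1.72. The higher ratios thus went on past 3 of the 4 borders at a similar level.

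**Figure D1:**
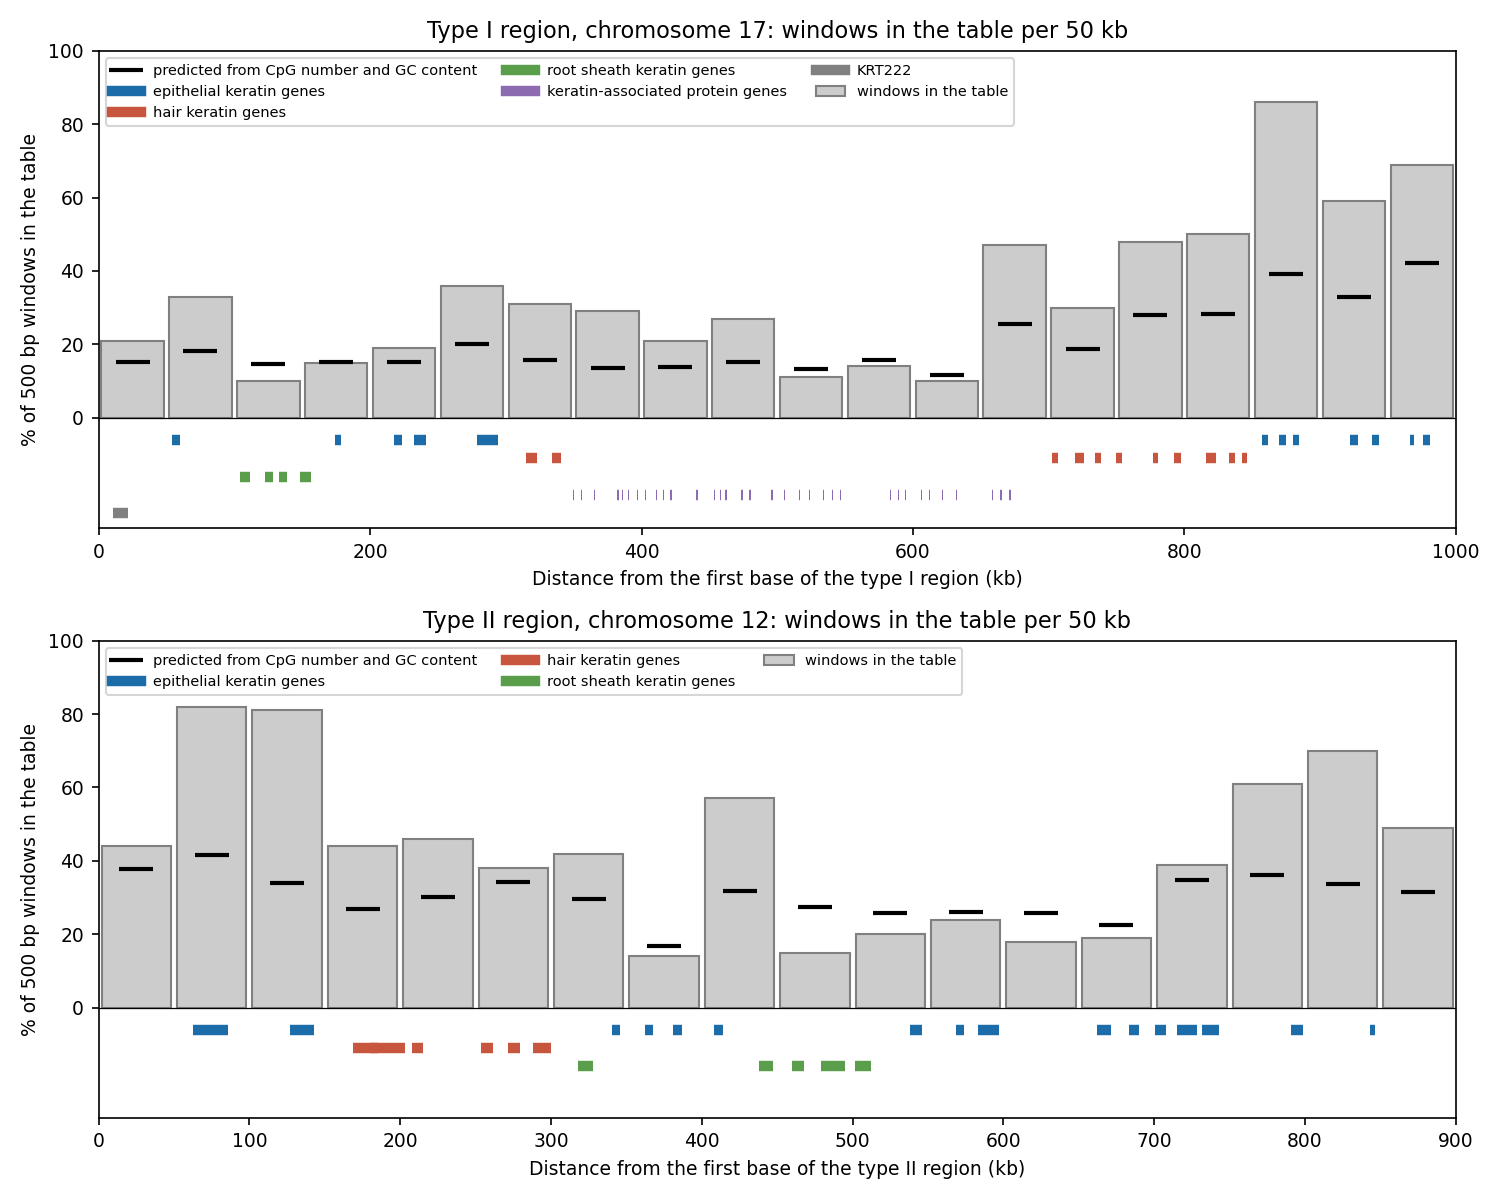
Percent of 500 bp windows in the table per 50 kb along the type I region (top) and the type II region (bottom), against the distance from the first base of the region in kb. Grey bars are the listed windows, black dashes the percent predicted from CpG number and GC content, and coloured bars below 0 the gene bodies by class. The highest bars, at 86%, 82% and 81%, lie over KRT13, KRT15 and KRT19, over KRT80 and over KRT7.

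Listing changed in blocks along each cluster. Of the 50 kb blocks, that with the starts of KRT13, KRT15 and KRT19 had 86 of 100 windows listed against 39.1 predicted. The blocks with the starts of KRT80 and KRT7 had 82 and 81 of 100 windows listed, against 41.6 and 33.9 predicted. The block with KRT74 and KRT72, of the inner root sheath, had 15 of 100 listed against 27.5 predicted. The block with KRT25, KRT26 and KRT27, also of the inner root sheath, had 10 of 100 against 14.6 predicted. In the type I region the longest unbroken run of listed windows was 34 windows, or 17 kb, at chr17:39666501-39683500 across KRT15 and KRT19. In the type II region it was 33 windows, 16.5 kb, at chr12:52594501-52611000 between KRT80 and KRT7. The longest runs of absent windows were 91 windows, 45.5 kb, at chr17:39388501-39434000 across 6 KRTAP9 genes, and 79 windows, 39.5 kb, at chr12:53123501-53163000, which ends in KRT76. In these gaps 11.6% and 21.7% of windows were predicted to be listed, and 79.6% and 95.3% of all 50-base sequences occur once in the genome.

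Windows between the genes were listed more often than predicted in both regions. Outside all protein-coding gene bodies and keratin pseudogenes the ratio was 1.73 (1.60 to 1.86) in the type I region and 1.60 (1.49 to 1.70) in the type II region. The stretch from KRT13 to KRT17, chr17:39657233-39780827, had 53 of 68 gene body windows listed, a ratio of 1.70, and 112 of 180 windows between genes, a ratio of 1.92. From KRT80 to KRT7 the ratio was 2.04 in the gene bodies and 2.51 between them. From KRT8 to KRT18 it was 1.43 in the gene bodies and 2.11 between them. From KRT2 to KRT76, where epidermal and palate keratins lie, it was 0.550 in the gene bodies and 0.845 between them. Pseudogenes count as DNA between genes in these stretches, which were chosen after their values were seen, and in each of them the genes and the DNA between them lay on the same side of prediction. Of 9 such stretches computed, the ratio was higher between the genes in 8, and in the other, KRT25 to KRT28, it was 0.794 in the gene bodies and 0.786 between them.

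The gene bodies of epithelial and hair keratins were listed to a similar extent. Of 443 windows in the bodies of the 28 epithelial genes 200 were listed, 45.1% (40.6 to 49.8%), against 35.4% predicted, a ratio of 1.28 (1.15 to 1.41). Of 256 windows in the bodies of the 17 hair genes 121 were listed, 47.3% (41.2 to 53.4%), against 34.4% predicted, a ratio of 1.37 (1.20 to 1.55). The log2 of the epithelial over the hair ratio was -0.11 (-0.34 to 0.13), an interval that includes 0. It does not show that the classes are alike. The root sheath genes had fewer listed windows than predicted, 34 of 161, 21.1% (15.5 to 28.1%), against 29.0% predicted, a ratio of 0.729 (0.536 to 0.969). The keratin-associated protein genes, single-exon genes of 1 to 3 windows, had 20 of 62 windows listed and a ratio of 0.915 (0.622 to 1.26). With every window that overlaps a gene body counted, their ratio was 1.24, on the other side of 1 and within this interval. The 13 keratin pseudogenes had 66 of 153 windows listed, a ratio of 1.38 (1.14 to 1.64).

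Type I genes had higher ratios than type II genes in both classes under the autosomal prediction. The 12 epithelial genes of the type I cluster had a ratio of 1.53 (1.29 to 1.78) and the 15 type II epithelial genes 1.15 (0.999 to 1.31). The 11 type I hair genes had 1.49 (1.23 to 1.76) and the 6 type II hair genes 1.28 (1.05 to 1.51). The intervals of type I and type II overlap in each class. Predicted from their own chromosome, the type I and type II ratios were 1.24 and 1.10 in epithelial genes and 1.22 and 1.24 in hair genes, so that the order of the hair genes turned. The cluster and the chromosome cannot be told apart here. The ratio was 1.06 (0.867 to 1.26) over exons and 1.39 (1.22 to 1.56) over introns in epithelial genes, 1.23 (0.982 to 1.46) and 1.46 (1.23 to 1.70) in hair genes, and 0.490 (0.246 to 0.887) and 0.835 (0.591 to 1.14) in root sheath genes. These intervals overlap in each class, and the listed shares ran the other way in epithelial genes, at 47.9% over exons and 44.1% over introns, and in hair genes, at 58.0% and 43.3%.

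**Figure D2:**
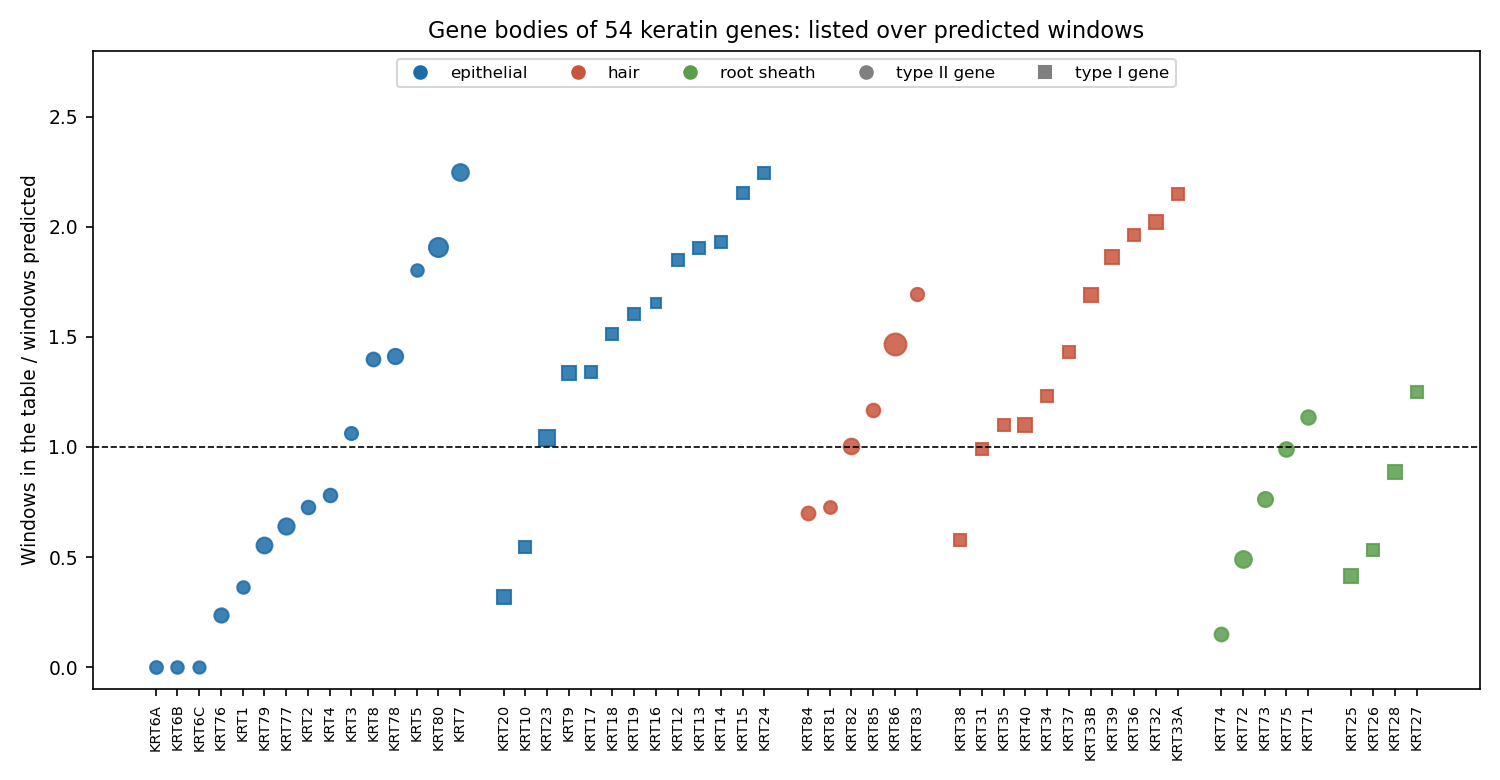
Ratio of listed to predicted gene body windows for each of 54 keratin genes, ordered by ratio within class. Colours give the class, circles type II and squares type I genes, and larger symbols more windows; the dashed line is a ratio of 1. Epithelial genes span 0 to 2.25, hair genes 0.579 to 2.15 and root sheath genes 0.152 to 1.25.

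Single genes ranged widely within each class. Among the 28 epithelial genes 17 had a ratio above 1, the median ratio was 1.34 and the range 0 to 2.25. Among the 17 hair genes 13 had a ratio above 1, with a median of 1.23 and a range of 0.579 to 2.15. Among the 9 root sheath genes 2 had a ratio above 1, with a median of 0.762. The counts of genes in this paragraph were not made over all protein-coding genes. The type I and type II regions as wholes had ratios of 1.62 and 1.39, so a count above 1 is not by itself a trait of a class. Of the 34 keratin-associated protein genes, 20 had no listed window in the gene body and 9 had all listed. Of their gene body windows 29.0% consist of sequence that occurs once in the genome throughout, against 72.0% in epithelial genes. The part of read mapping in the listing of these genes was not tested.

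The 4 marker genes all had more listed windows in the gene body than predicted. An excess was not particular to them, as the type I region as a whole had a ratio of 1.62 and the type II region 1.39. The gene ratios were 1.93 for KRT14, 1.80 for KRT5, 1.4 for KRT8 and 1.51 for KRT18. The DNA between KRT8 and KRT18 had 2.11. KRT14 (chr17:39738531-39743147), the type I keratin of basal cells, had 8 of 9 windows listed (4.14 predicted). KRT5 (chr12:52908359-52914178), its type II partner, had 7 of 11 (3.88 predicted). KRT8 and KRT18, the partners of simple epithelia, had 11 of 16 (7.86 predicted, chr12:53290975-53298860) and 5 of 7 (3.30 predicted, chr12:53342902-53346690). Both have processed pseudogenes elsewhere in the genome, and 4 of the 16 KRT8 windows and 2 of the 7 KRT18 windows consist of sequence that occurs once throughout. They differed at the start site. The window that holds the start was listed for KRT14 and KRT18, with 19 and 45 CpG sites, and not for KRT5 and KRT8, with 13 and 24. Of the 6 promoter windows, which cover the 3000 bp before the canonical start, 6 were listed for KRT14, 5 for KRT18, 4 for KRT8 and 3 for KRT5.

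The epithelial genes with the highest ratios were KRT7, a keratin of simple and glandular epithelia, at 2.25 with 26 of 31 windows listed, KRT24 at 2.24 with 7 of 12, and KRT15, a keratin of basal and hair bulge cells, at 2.16 with 10 of 10. The lowest were KRT6A, KRT6B and KRT6C, which are induced in wounded and hyperproliferative epithelium. None of their 12, 11 and 10 gene body windows was listed, against 4.20, 4.26 and 3.59 predicted. KRT6C was the 1 keratin gene of the 55 with no listed window in the body or in the 6 promoter windows. Other low genes, chosen after their values were seen, were KRT76 of the palate, with 1 of 18 body windows listed, and KRT1 and KRT10, the partners of the suprabasal epidermis, with 1 of 11 and 1 of 9.

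Among hair keratins KRT33A, KRT32 and KRT36 had the highest ratios, with 6 of 9, 12 of 15 and 7 of 7 windows listed (2.15, 2.02 and 1.96). The lowest were KRT38 with 2 of 9, KRT84 with 4 of 16 and KRT81 with 4 of 12 (0.579, 0.698 and 0.727). KRT86 had the most windows, 31 of 69 listed, because its canonical transcript is 34519 bp long. That span includes KRT81, which has 12 windows. Without the gene with most windows the hair ratio was 1.30. Among root sheath keratins, KRT74 had 1 of 16 windows listed (0.152), KRT25 1 of 14 (0.413) and KRT72 4 of 31 (0.493). KRT27, KRT71 and KRT75 had 3 of 12, 9 of 19 and 6 of 20 (1.25, 1.14 and 0.993). Keratins of the inner sheath were at both ends, KRT74, KRT25 and KRT72 at the low and KRT27 and KRT71 at the high end. Hair shaft genes and root sheath genes lay on different sides of prediction as classes, with intervals of 1.20 to 1.55 and 0.536 to 0.969. The DNA between the genes lay on the same sides. It had 1.90 from KRT33A to KRT36 and 1.47 from KRT86 to KRT82 among hair genes. Among root sheath genes it had 0.803 from KRT71 to KRT73 and 0.786 from KRT25 to KRT28, with intervals that include 1. Gene class and place in the cluster were not separated. The side of the root sheath genes rests on the prediction by composition, since against the 17.6% of all autosomal windows their ratio was 1.20.

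Within the epithelial class the listing varied between keratins of different epithelia. These groups were formed after the values were seen and are a description. They leave out KRT23, KRT24, KRT78, KRT79 and KRT80, with ratios of 1.04, 2.24, 1.41, 0.556 and 1.91. Several grouped genes lie in 1 stretch, and the DNA between genes had 1.92 from KRT13 to KRT17 and 0.845 from KRT2 to KRT76. The kind of epithelium and the place in the cluster were not separated. The basal keratins KRT5, KRT14 and KRT15 had 25 of 30 gene body windows listed, a ratio of 1.98 (1.57 to 2.20). The simple epithelial keratins KRT7, KRT8, KRT18, KRT19 and KRT20 had 50 of 82, a ratio of 1.65 (1.36 to 1.92). The stress keratins KRT6A, KRT6B, KRT6C, KRT16 and KRT17 had 14 of 50, a ratio of 0.647 (0.404 to 0.962), all 14 in KRT16 and KRT17. The keratins of epidermal differentiation, KRT1, KRT2, KRT9, KRT10 and KRT77, had 17 of 76, a ratio of 0.733 (0.474 to 1.08). The mucosal keratins KRT4, KRT13 and KRT76 had 14 of 43, a ratio of 0.994 (0.626 to 1.45), and the corneal keratins KRT3 and KRT12 had 11 of 25, a ratio of 1.38 (0.838 to 1.98). The intervals of 3 of these 6 groups include 1. Single genes departed from their group, as KRT20, a simple epithelial keratin, had 1 of 19 windows listed.

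The stress keratins were read against the uniqueness of their sequence, since the authors kept only reads that map to a single place. Over KRT6A, KRT6B and KRT6C 69.3% of all 50-base sequences occur once in the genome, and over KRT14, KRT16 and KRT17, another set of close relatives, 86.2% do. The former had 0 of 33 windows listed and the latter 22 of 26, against 36.5% and 52.8% predicted. Of the 33 KRT6 windows, 4 are unique throughout and 21 more have over 50% of their sequences unique, and 0 of either were listed. Over both regions, windows with over 0 to 50% unique sequences were listed in 7 of 75 cases, a ratio of 0.378 (0.186 to 0.730). Those with over 50 and under 100% were listed in 412 of 1149, a ratio of 1.24 (1.15 to 1.34). Those with all unique were listed in 1010 of 2568, a ratio of 1.664 (1.585 to 1.745), and those with none in 0 of 8. Partly unique windows thus had lower ratios than windows unique throughout. The part of read mapping in the absence of the KRT6 windows was not tested. Upstream, 6 of 6 promoter windows of KRT6A, 2 of 6 of KRT6B and 0 of 6 of KRT6C were listed, so that the gap at chr12:52856001-52887000, 62 windows across KRT6C and KRT6A, ends at the start of KRT6A.

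**Figure D3:**
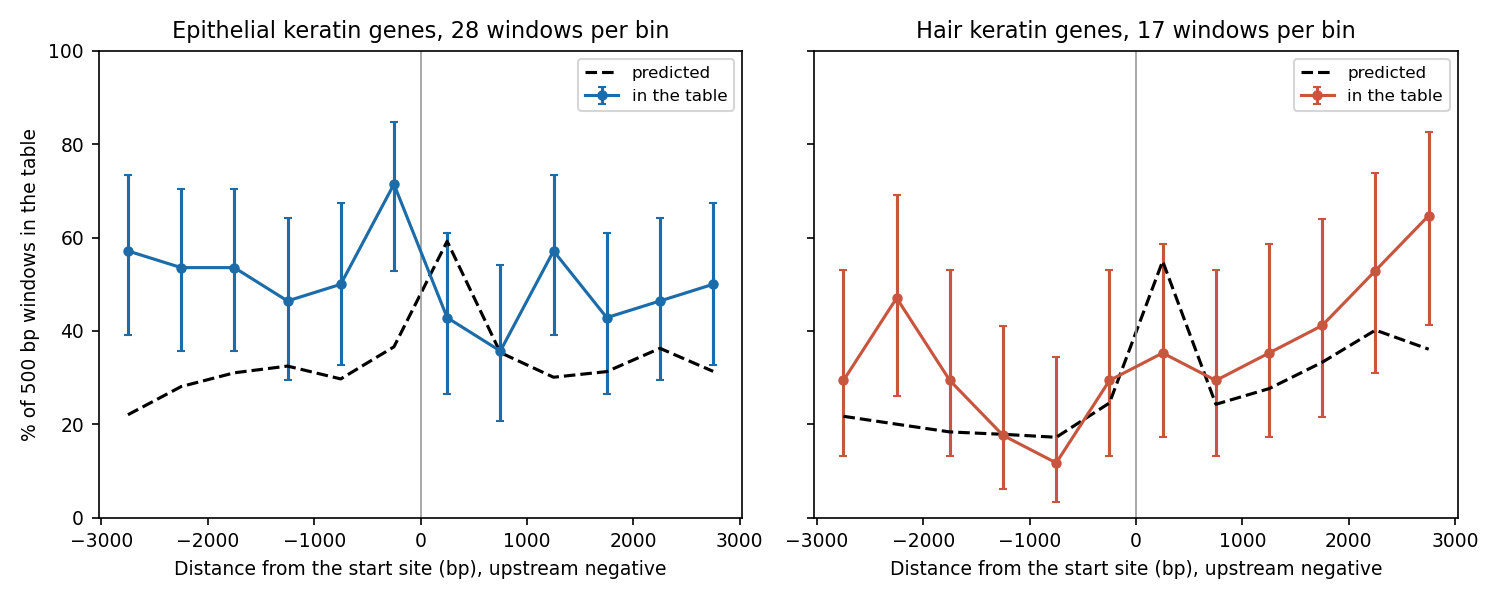
Percent of 500 bp windows listed, in 500 bp steps from 3000 bp upstream to 3000 bp downstream of the canonical start, for 28 epithelial (left) and 17 hair (right) keratin genes; bars are 95% Wilson intervals and dashed lines the predicted percent. The step just upstream of the start has 71.4% in epithelial and 29.4% in hair genes.

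The listed shares of epithelial and hair genes lay further apart in the promoters than in the gene bodies. Of 168 promoter windows of epithelial genes 93 were listed, 55.4% (47.8 to 62.7%), and of 102 of hair genes 28 were, 27.5% (19.7 to 36.8%). The predicted shares also differed, at 30.0% and 20.0%. The ratios were 1.84 (1.59 to 2.09) and 1.37 (0.987 to 1.84), and their intervals overlap. Over all autosomal protein-coding genes 39.6% of such windows were listed, a ratio of 1.36, so that the epithelial share was above and the hair share below this level, while the hair ratio was close to it. With 1500 bp upstream the hair ratio was 0.985 (0.553 to 1.63) and the epithelial ratio 1.70 (1.38 to 2.01), whose intervals also overlap. With the start at the outermost 5′ end of the gene, the hair share was 34.3% and the ratios were 1.57 (1.18 to 2.01) and 1.87 (1.61 to 2.11), which lie closer. Root sheath genes had 12 of 54 promoter windows listed (1.06) and keratin-associated protein genes 51 of 196 (2.03, the latter against only 12.8% predicted).

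In the 500 bp just upstream of the start 20 of 28 epithelial genes had a listed window (36.6% predicted), against 5 of 17 hair genes (24.6% predicted). The ratios were 1.95 (1.45 to 2.32) and 1.20 (0.540 to 2.16), and their intervals overlap. In the 500 bp after the start both classes were below prediction, with 12 of 28 and 6 of 17 listed and ratios of 0.724 (0.448 to 1.03) and 0.642 (0.315 to 1.07). This step had the highest predicted share in either class, 59.2% and 55.0%, being rich in CpG sites. Of the 6 promoter windows all were listed for 10 of 28 epithelial genes and for 0 of 17 hair genes. The predicted shares of promoter windows also differed, at 30.0% and 20.0%, and this count was not made over all protein-coding genes. Of the 10, 6 were all the epithelial genes of the stretch from KRT13 to KRT17 other than KRT9, namely KRT13, KRT15, KRT19, KRT14, KRT16 and KRT17, and the others were KRT80, KRT7, KRT6A and KRT79. None was listed for 5 epithelial genes (KRT6C, KRT10, KRT12, KRT76 and KRT77) and 3 hair genes (KRT33B, KRT34 and KRT39). These genes are named after their values were seen. Of the promoter windows of the groups by epithelium, also formed after the values were seen, 83.3% were listed in basal (45.3% predicted), 73.3% in simple epithelial (35.5%) and 66.7% in stress keratins (32.0%). The share was 13.3% in the keratins of epidermal differentiation (18.5% predicted, a ratio of 0.721 with an interval of 0.287 to 1.60), 38.9% in mucosal keratins (31.8%) and 41.7% in corneal keratins (9.38%). The stress keratins were not alike: KRT16 and KRT17 had 6 of 6 promoter windows and 6 of 6 and 8 of 11 body windows listed, KRT6A had 6 of 6 and 0 of 12, and KRT6C had none of either.

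**Figure D4:**
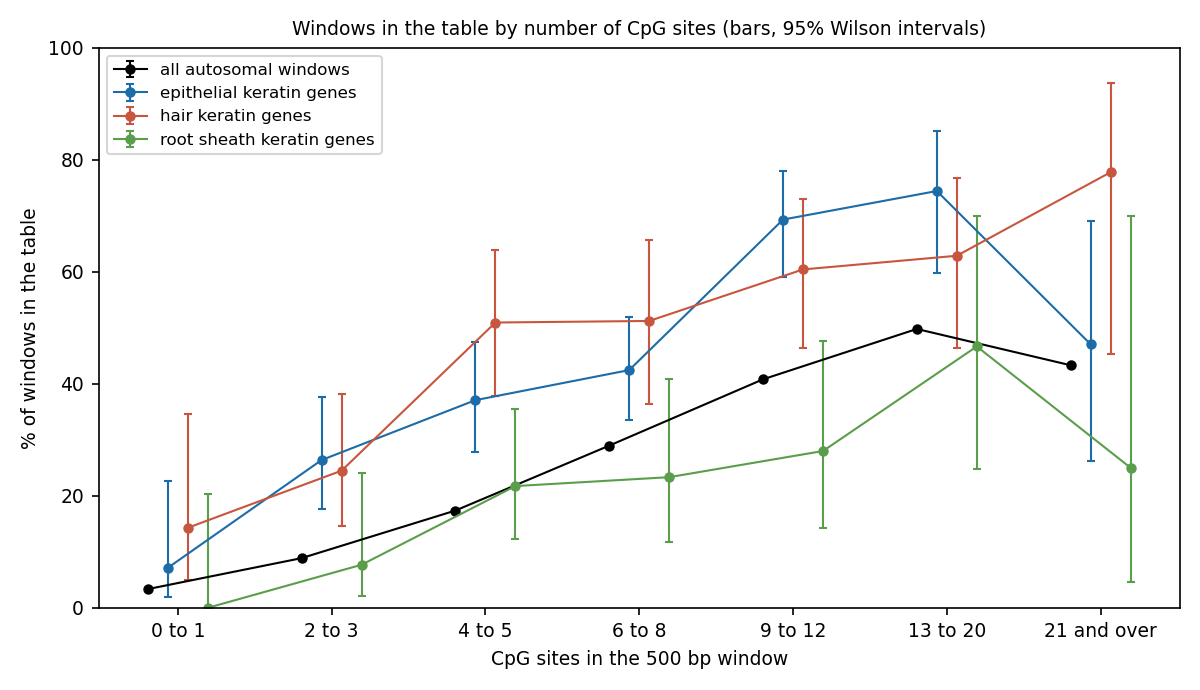
Percent of 500 bp windows listed by number of CpG sites in the window, for all autosomal windows and for the gene bodies of epithelial, hair and root sheath keratins; bars are 95% Wilson intervals and points are set side by side. At 9 to 12 CpG sites 69.3% of epithelial and 60.4% of hair windows are listed against 40.8% over the autosomes.

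Over the autosomes the listed share went from 3.35% at 0 or 1 CpG site to 49.8% at 13 to 20 sites, and was 43.3% at 21 and over. The epithelial gene bodies followed this form from 7.14% to 74.4% and then 47.1%, with 8 of 17 windows listed in the highest class. Hair gene bodies had 14.3% at 0 or 1 site, 62.9% at 13 to 20 and 77.8% at 21 and over, the last from 9 windows. Root sheath gene bodies had 0 of 15, 7 of 15 and 1 of 4 windows listed in these 3 classes, and their share was below the epithelial and hair shares in each of the 7 CpG classes. At 9 to 12 CpG sites the epithelial share, 69.3% (59.0 to 78.0%), and the root sheath share, 28.0% (14.3 to 47.6%), did not overlap in their intervals. In the other 6 CpG classes the epithelial and root sheath intervals overlapped. The hair share, 50.9% (37.9 to 63.9%), and the root sheath share, 21.7% (12.3 to 35.6%), did not overlap in their intervals at 4 to 5 CpG sites. In the other CpG classes the hair and root sheath intervals overlapped.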

How the data were processed

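The libraries were 4 hMeDIP-seq samples of FADU cells, 1 per condition. The authors sequenced enriched DNA as single-end reads, mapped them to hg19 with Bowtie 0.12.7, keeping reads with a single best place and 1 copy of each, and counted windows of 500 bp with MEDIPS. The deposited table gives window positions (chromosome, start and stop, which are coordinates and no score) and 4 value columns whose names match no label. These 4 columns were not used, so depth and any scaling by depth are not analysed here. How the authors chose the windows was not tested. The name under which the counts were deposited hints at a lower limit on reads per window. Being listed may thus mean passing a count cutoff, and is not taken here as a peak or enrichment call.

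Windows were matched to GRCh37, whose coordinates are those of hg19, with autosomal windows holding an undetermined base left out (5368882 kept). The predicted share is how often autosomal windows of one CpG number (40 and over together) and one 25-base step of GC content were listed. Intervals are 95% Wilson intervals, with the prediction taken as fixed. A gene body is the span of the Ensembl canonical transcript (GENCODE version 44 lifted to GRCh37), a reading set after the table was seen, and holds windows by their midpoint. A sequence is unique where all 451 of a window's 50-base sequences occur once by exact match on both strands. Genes were named by rule: the 4 markers and, per class, the 3 highest and 3 lowest ratios among genes with 6 or more windows. The members and gene lists were chosen with earlier results of these data known. Tested on simulated data over 5368882 windows, a factor of 1.5 set in the type II region was recovered as 1.47 and a factor of 1 in the type I region as 0.984. The simulated windows were drawn independently from the predicted shares, unlike the real neighbours. The simulation thus checks the computation only, and not the ratios or their intervals. Computation used Numba 0.67.0 and NumPy 2.4.6 in Python 3.11.15, with pandas 2.3.3, SciPy 1.17.1 and Matplotlib 3.10.9. Some promoter sequences are not reported here. Alternatives changed the prediction, the windows, the gene limits and the classes.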

Additional observations from a re-analysis of the deposited data

How the results depend on the processing

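No paired analysis was possible because no result comes from a test between samples, the value columns being unused. Across the alternatives 44 values stayed within the interval of the value reported, 19 moved outside it on the same side or without a call, and 1 reversed. The ratio of the root sheath genes, 0.729, reversed to 1.20 with no prediction by composition and ranged from 0.664 to 0.871 under the other alternatives, all added after seeing the data. Predicted from CpG number alone, the ratio was 1.79 in the type I region, 1.83 in the type II region, 1.67 in epithelial, 1.80 in hair and 1.30 in keratin-associated protein genes. With no prediction by composition these were 1.89, 2.41, 2.57, 2.69 and 1.83. Predicted from their own chromosomes, the type I region had 1.27 and the type II region 1.33, so that the order of the regions turned. The type I region had 1.73 over unique windows alone, where the prediction was scaled by 1.10 from 26818 unique windows among 40000 drawn from the autosomes. With 3000 bp upstream added, epithelial genes had 1.42 and keratin-associated protein genes 1.51, and the log2 of epithelial over hair ratio was 0.04, within the interval of -0.34 to 0.13. With root sheath genes counted as hair keratins the hair ratio was 1.15 and this log2 value 0.15, of the other sign. With 1500 bp promoters 19.6% of hair promoter windows were listed. Without KRT6A, KRT6B and KRT6C, an alternative chosen after seeing the data, the epithelial ratio was 1.38 and the log2 value 0.0091. Except where the construction shows it, the cause was not tested. The alternative on repeats was not run, because the reference genome given marks none. Small classes limit precision: the 9 root sheath genes have 161 windows and the keratin-associated protein genes 62.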
